A study of Mus musculus with 19 samples.

Results

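The genes of tetrahydrobiopterin synthesis and recycling, together with the inducible nitric oxide synthase that uses the cofactor, were described in mouse lavage cells. They are 6 of the 56941 genes in the deposited tables (Gch1, Pts, Spr, Qdpr, Pcbd1 and Nos2), matched by gene symbol. Pts was picked because its response to bacterial particles ran in opposite directions in mice of both genotypes, that is, it was selected on its measured values in all 4 groups, which are given without a test. The other 5 were taken from the known pathway. All 6 passed the filter on low counts, as did 20501 genes in all.

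The series is bulk RNA sequencing of 19 frozen lavage pellets, 1 per female mouse of 7 to 8 weeks, that the labels call primary alveolar macrophages. The groups were ICAM-1 null mice exposed for 1 h to pHrodo-labelled Staphylococcus aureus bioparticles (n = 5), naive ICAM-1 null mice (n = 5), exposed wild type C57Bl/6J mice (n = 5) and naive wild type mice (n = 4). Exposed animals aspirated 100 uL of particles at 2.27 mg/mL under isoflurane. pHrodo is a dye that brightens in acid compartments, and ICAM-1 is an adhesion molecule of the cell surface bound by leukocyte integrins. Neither a sort of the lavage cells nor the handling of naive mice is given in the sources used here. The strain background of the null line is also not given, so loss of ICAM-1 and other differences between the lines cannot be told apart.

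Tetrahydrobiopterin is a cofactor made from GTP. Gch1 encodes the first and rate-limiting enzyme, Pts the enzyme that follows it, and Spr the reductase that completes the synthesis. Pcbd1 and Qdpr encode the dehydratase and the reductase that recycle the cofactor after use, and Nos2 encodes the synthase that makes nitric oxide from arginine in activated macrophages with its help.

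The libraries held 32.8 to 80.3 M estimated counts, and wild type naive libraries 1, 2 and 3, at 32.8, 37.0 and 41.0 M, were the shallowest. Icam1 stood at 9.48 to 13.2 TPM (abundance scaled by transcript length) in exposed null, 4.88 to 11.5 TPM in naive null, 722 to 1079 TPM in exposed wild type and 63.8 to 85.9 TPM in naive wild type libraries, with no overlap between null and wild type libraries. All 12 alveolar macrophage markers were above 0 in each group, with summed levels of 22201 to 29711 TPM over the 19 libraries. In bulk RNA, fewer cells of a type and less RNA per cell cannot be told apart.

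On exposure, Gch1 rose strongly in mice of both genotypes, Spr fell in both, and Qdpr did not pass the test in either. Pts was higher in exposed than in naive null mice and lower in exposed than in naive wild type mice. Nos2 and Pcbd1 were near the floor of detection in all 4 groups. Of the 5 members other than Pts, 2 passed an adjusted p of 0.05 in each genotype's exposure comparison, Gch1 upward and Spr downward. Among all genes tested 44.8% passed in null mice (21.4% upward, 23.4% downward) and 40.2% in wild type mice (20.1% upward, 20.2% downward), so a share of 2 in 5 is close to the background. Differences below are log2 fold changes of estimated counts from edgeR's quasi-likelihood test, with their standard errors (SE) and p-values adjusted by Benjamini-Hochberg over the 20501 genes. Levels are in TPM, a scale per transcript length, with SD.

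**Figure D1:**
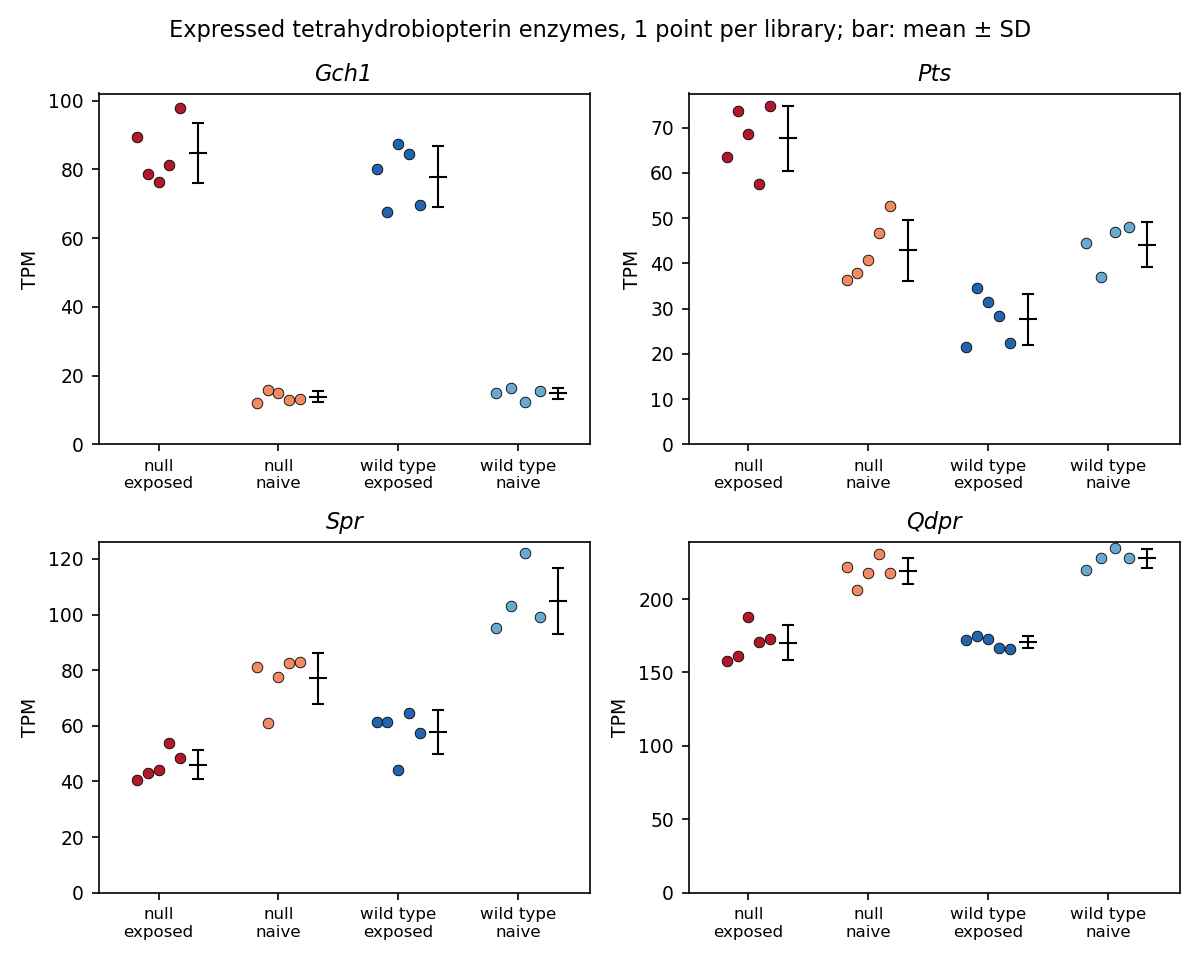
TPM of the 4 expressed enzymes of the pathway (vertical axes, from 0) by group, with 1 point per library and bars for the mean ± SD. Gch1 separates exposed from naive libraries in both genotypes, while Pts is highest in exposed null (57.6 to 74.9 TPM) and lowest in exposed wild type libraries (21.5 to 34.5 TPM).

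Gch1 (ENSMUSG00000037580.11) lies on the minus strand of chromosome 14, from 47391352 to 47426870 on GRCm39. Its level was 89.4, 78.8, 76.4, 81.2 and 97.8 TPM in the exposed null libraries, against 12, 15.8, 15, 13.0 and 13.3 TPM in the naive null libraries. In wild type mice it was 80.2, 67.7, 87.3, 84.6 and 69.5 TPM in exposed libraries, against 14.9, 16.4, 12.4 and 15.5 TPM in naive libraries. All exposed libraries lay above all naive ones, whichever the genotype. Among all genes tested, 40.7% had groups that did not overlap in TPM between exposed and naive null mice and 40.2% between exposed and naive wild type mice, and 8.0% and 8.2% did so upward.

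The log2 fold change of Gch1 was 2.97 in null mice (SE 0.10, adjusted p = 2.0e-15) and 2.77 in wild type mice (SE 0.11, adjusted p = 3.2e-14), that is 7.83-fold and 6.83-fold. The null response exceeded the wild type response by 0.20 (SE 0.14, 95% interval -0.08 to 0.48, adjusted p = 0.71), so no difference between genotypes was shown. Mean levels were 84.7 ± 8.79 TPM in exposed null (n = 5), 77.9 ± 8.85 TPM in exposed wild type (n = 5), 13.8 ± 1.54 TPM in naive null (n = 5) and 14.8 ± 1.7 TPM in naive wild type mice (n = 4). Both exposed groups were thus above both naive groups, and the genotypes overlapped within each exposure state. The genotype difference was 0.16 in exposed mice (SE 0.10, adjusted p = 0.39) and -0.04 in naive mice (SE 0.10, adjusted p = 0.93). The predicted genes Gm49134 and Gm18811 overlap Gch1 and reached at most 2.58 TPM in any library.

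The promoters of Gch1 and Pts are shown because these are the members with the largest differences on exposure among those well above the floor, in the same direction in both genotypes for Gch1 and in opposite directions for Pts. Each is the 250 bases before the RefSeq start of the gene, read 5′ to 3′ on the gene's strand from RefSeq on GRCm38.p6, an older build than that of the deposited coordinates. The Gch1 window is chr14:47189414-47189663 on the minus strand, and the Pts window is chr9:50528657-50528906 on the minus strand. Capitals mark every match on either strand to the CCAAT box (CCAAT), the cAMP response element core (TGACG), the GC box (GGGCGG), the TATA box (TATAAA), the interferon-gamma activated site (TTCNNNGAA) and the NF-kB consensus.
Gch1 promoter: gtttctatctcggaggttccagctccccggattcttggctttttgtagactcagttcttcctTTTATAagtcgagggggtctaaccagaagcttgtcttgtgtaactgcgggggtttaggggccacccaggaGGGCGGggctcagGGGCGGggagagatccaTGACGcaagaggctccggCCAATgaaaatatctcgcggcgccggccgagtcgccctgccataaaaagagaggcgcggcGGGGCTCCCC
Pts promoter: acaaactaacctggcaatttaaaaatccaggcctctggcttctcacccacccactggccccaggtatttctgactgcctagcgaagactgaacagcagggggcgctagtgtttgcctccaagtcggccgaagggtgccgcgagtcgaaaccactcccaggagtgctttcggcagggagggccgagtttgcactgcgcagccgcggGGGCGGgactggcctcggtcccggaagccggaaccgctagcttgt

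The Gch1 window held 1 CCAAT box, 1 TGACG core, 2 GC boxes, 1 TATA box on the reverse strand and 1 NF-kB consensus, which ends at the last base before the start. No marked match overlapped another in this window. The Pts window held 1 GC box and none of the other motifs. Among 32851 RefSeq promoter windows of the same length, 33.8% held CCAAT, 17.8% TGACG, 32.7% GGGCGG, 12.4% TATAAA, 7.02% TTCNNNGAA and 3.9% the NF-kB consensus. RefSeq windows were matched for 5 of the 6 members, Nos2 being the exception. Among the others, Spr held 2 GC boxes, Qdpr 2 CCAAT boxes and 1 GC box, and Pcbd1 1 TATA box. These matches describe letters in the windows and are not measured binding sites.

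Pts (ENSMUSG00000032067.7) lies on the minus strand of chromosome 9, from 50432917 to 50440024, and overlaps no other annotated gene. Its level was 63.6, 73.7, 68.7, 57.6 and 74.9 TPM in exposed null libraries, against 36.4, 37.9, 40.7, 46.7 and 52.7 TPM in naive null libraries. In wild type mice it was 21.5, 34.5, 31.4, 28.4 and 22.5 TPM in exposed libraries, against 44.5, 37.0, 47.0 and 48.1 TPM in naive libraries. All exposed null libraries lay above all others, all exposed wild type libraries lay below all others, and the naive groups overlapped. Exposed null and exposed wild type libraries had separate TPM ranges for 6.21% of all genes, and nothing is read from that for Pts.

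By group, Pts averaged 67.7 ± 7.21 TPM in exposed null, 42.9 ± 6.77 TPM in naive null, 27.7 ± 5.64 TPM in exposed wild type and 44.1 ± 4.97 TPM in naive wild type mice. The fitted log2 fold change on exposure was 1.26 in null mice (SE 0.10) and -0.46 in wild type mice (SE 0.10). Null against wild type it was 1.39 in exposed mice and -0.34 in naive mice (SE 0.10 each), and the difference of responses was 1.73 (SE 0.14). These values are the pattern for which Pts was picked and are a description. Among all genes, 0.332% passed the interaction test, and nothing is read from that share for Pts.

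The size of the Pts difference depended on the scaling and on the unit. The change on counts with library totals alone, in place of TMM scaling, was 0.92 in null and -0.82 in wild type mice. On log2(TPM + 1), which changes both, it was 0.65 in null and -0.67 in wild type mice, with a difference of responses of 1.32. Estimated counts per TPM, relative to the median gene of the library, follow the mean length of the transcripts to which the reads were assigned. For Pts this ratio was 0.839 to 1.07 in exposed null, 0.728 to 0.873 in naive null, 0.835 to 1.11 in exposed wild type and 0.981 to 1.07 in naive wild type libraries. The naive null libraries thus lay below the naive wild type libraries without overlap, and there the genotype difference in Pts was -0.34 on counts and -0.05 on log2(TPM + 1). Over 19 libraries the coefficient of variation of the ratio was 0.118 for Pts, larger than for 95.8% of 10053 genes of at least 5 TPM on average. It was 0.00456 for Gch1 and 0.0044 for Qdpr, which kept 1 ratio, and 0.142 for Spr.

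**Figure D2:**
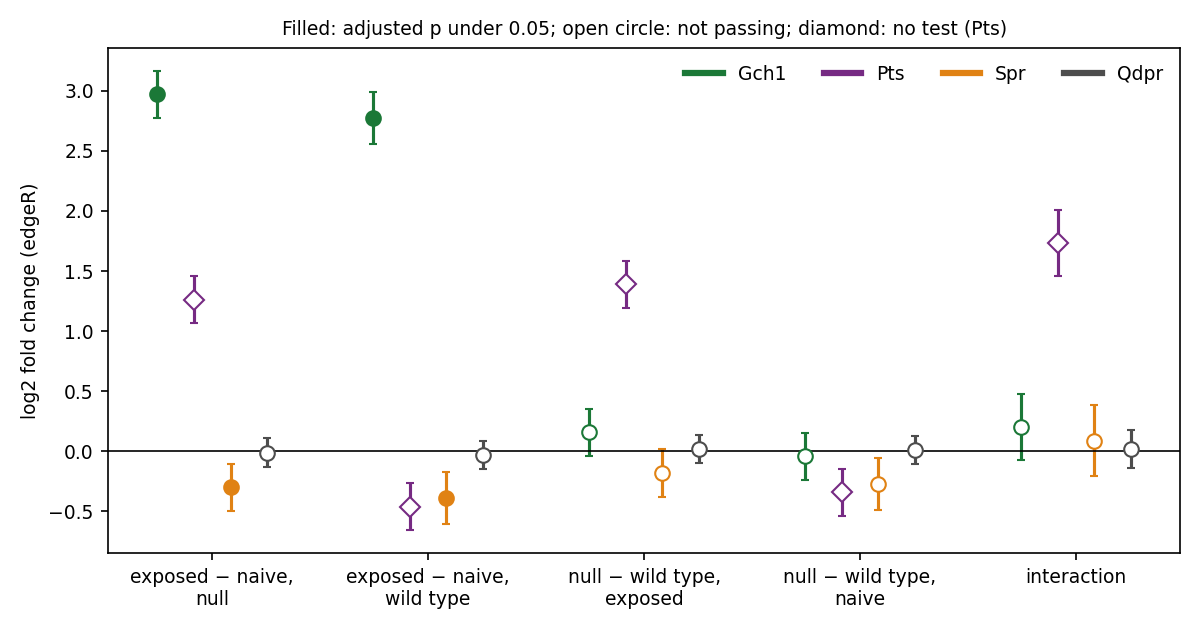
Log2 fold change (vertical axis) of the 4 expressed enzymes in the 5 comparisons, with bars for the 95% interval. Gch1 stands near 3 on exposure in both genotypes. Pts (diamonds) has no test and is above 0 in null and below 0 in wild type mice. That is the pattern for which it was picked, so nothing is read from where its bars lie.

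Summed marker levels of some other cells were higher in the exposed wild type libraries, where Pts was lowest. The summed level of 14 airway and alveolar epithelial markers was 734 to 968 TPM in exposed null, 483 to 654 TPM in naive null, 1093 to 3147 TPM in exposed wild type and 512 to 663 TPM in naive wild type libraries. All 14 were detected in the first 3 of these groups, and Krt13 was at 0 in naive wild type mice. The 8 erythroid and platelet markers summed to 133 to 353 TPM in exposed null, 100.5 to 355 TPM in naive null, 372 to 2401 TPM in exposed wild type and 138 to 413 TPM in naive wild type libraries. The exposed wild type group did not overlap the exposed null group in either list. By marker, 1 of 14 epithelial genes tested was higher and 3 were lower in exposed null than in exposed wild type mice. Of 7 erythroid and platelet genes tested, 0 were higher and 5 lower. Among all genes 8.48% passed in that comparison.

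For the 10 monocyte and interstitial macrophage markers, all above 0 in each group, the sums were 94.8 to 141 TPM in exposed null, 71.8 to 110.3 TPM in naive null, 237 to 430.1 TPM in exposed wild type and 123 to 215 TPM in naive wild type libraries. The summed level of the 12 neutrophil markers was higher in null than in wild type mice, at 125 to 188 TPM in exposed null, 170.3 to 185 TPM in naive null, 86.2 to 118 TPM in exposed wild type and 67 to 94.1 TPM in naive wild type libraries. Not every marker went this way. Of 8 tested, 3 were higher and 2 lower in exposed null mice, and 3 were higher and 0 lower in naive null mice. Among all genes 8.48% passed in exposed and 6.86% in naive mice. Of the granule markers among them, Ngp was at 0 in every group but exposed wild type, and Camp was at 0 in both exposed groups. Stfa2l1 was at 0 in every group but naive null. Of the 10 monocyte and interstitial macrophage markers, 0 were higher and 2 lower in exposed null than in exposed wild type mice. The part of any of these cell types in the Pts values was not tested.

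Spr (ENSMUSG00000033735.10, chromosome 6, 85107158 to 85114748, minus strand) was lower in exposed than in naive libraries of each genotype. It stood at 40.7, 43.0, 44.2, 53.9 and 48.6 TPM in exposed null libraries, against 81.0, 60.9, 77.6, 82.7 and 83 TPM in naive null libraries. In wild type mice it stood at 61.3, 61.5, 44.1, 64.6 and 57.5 TPM in exposed libraries, against 95.1, 103, 122 and 99.2 TPM in naive libraries. Exposed and naive libraries did not overlap within either genotype, as for 32.7% of all genes downward in null mice and 32.0% in wild type mice.

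The log2 fold change of Spr on exposure was -0.30 in null mice (SE 0.10, adjusted p = 0.021) and -0.39 in wild type mice (SE 0.11, adjusted p = 0.0064), and their difference was 0.09 (SE 0.15, adjusted p = 0.91). Without exposed null library 1 or 2, or naive null library 4, the null value was -0.23, -0.25 or -0.27 and no longer passed (adjusted p = 0.068, 0.062 and 0.052), and with only the compared groups in the fit it was -0.29 (adjusted p = 0.054). Without wild type naive libraries 1, 2 and 3 together the wild type value was -0.28 (adjusted p = 0.34). The difference was larger with library totals alone, at -0.64 in null (adjusted p = 5.9e-05) and -0.75 in wild type mice (adjusted p = 1.9e-05). On log2(TPM + 1) limma gave -0.73 in null (adjusted p = 5.3e-06) and -0.85 in wild type mice (adjusted p = 1.8e-06). From low to high the groups were exposed null (46.1 ± 5.22 TPM, n = 5), exposed wild type (57.8 ± 8.08 TPM, n = 5), naive null (77.0 ± 9.28 TPM, n = 5) and naive wild type (105 ± 11.6 TPM, n = 4). In naive mice the 2 genotypes did not overlap in TPM, as for 11.3% of all genes, but the test on counts did not pass (-0.27, SE 0.11, adjusted p = 0.18). For this comparison limma gave -0.44 on log2(TPM + 1) (adjusted p = 0.016). In exposed mice the genotypes overlapped, and the difference was -0.18 (SE 0.10, adjusted p = 0.37). The ratio of counts to TPM for Spr varied more across libraries than for 97.3% of genes. The processed pseudogene Spr-ps1 was at 0 counts in all 19 libraries.

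Qdpr (ENSMUSG00000015806.13, chromosome 5, 45591363 to 45607578, minus strand) was the most abundant member in every library. Its level was 158 to 188 TPM in exposed null libraries and 206 to 231 TPM in naive null libraries, and 166 to 175 TPM in exposed wild type libraries and 219.7 to 235 TPM in naive wild type libraries. Exposed and naive libraries did not overlap in TPM, yet the test on counts gave -0.01 in null mice (SE 0.06, adjusted p = 0.87) and -0.03 in wild type mice (SE 0.06, adjusted p = 0.74). The 2 results differ by the scaling: with library totals alone the median of all genes fell by 0.32 in null and by 0.34 in wild type mice, and Qdpr gave -0.35 and -0.39 (adjusted p = 2.5e-05 and 1.6e-05). Relative to that shift of the median, Qdpr was close to 0 in both genotypes. Between genotypes Qdpr differed by 0.02 in exposed mice (95% interval -0.09 to 0.14, adjusted p = 0.89) and by 0.01 in naive mice (-0.11 to 0.13, adjusted p = 0.98).

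The same scaling moved the split over all genes. It was 4387 higher and 4793 lower in null mice and 4111 higher and 4134 lower in wild type mice with TMM scaling. With library totals alone it was 2212 higher and 8147 lower in null mice, and 2233 higher and 8007 lower in wild type mice. Gch1 and the opposite signs of Pts kept their directions under every scaling tried. For Pts, which was picked on these libraries, this is a description.

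The order of levels among the 4 expressed enzymes was the same in every library of a group. In all 9 naive libraries, of both genotypes, it was Qdpr, Spr, Pts and then Gch1, with Gch1 the least abundant. In all 5 exposed null libraries it was Qdpr, Gch1, Pts and Spr, and in all 5 exposed wild type libraries Qdpr, Gch1, Spr and Pts. The ratio of Gch1 to Pts in TPM was 1.07 to 1.41 in exposed null, 0.252 to 0.416 in naive null, 1.96 to 3.73 in exposed wild type and 0.265 to 0.444 in naive wild type libraries. The ratio of Qdpr to Gch1 was 1.76 to 2.46 in exposed null and 13.0 to 18.5 in naive null libraries, and 1.98 to 2.59 in exposed wild type and 13.9 to 18.9 in naive wild type libraries. The place of Pts in these orders follows from its choice and is a description.

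Pcbd1 (ENSMUSG00000020098.8, chromosome 10, 60925110 to 60930103, plus strand) was hardly detected. It had 0, 7, 4, 19 and 6 estimated counts in exposed null libraries, 0, 8, 31, 10 and 8 in naive null libraries, 12, 0, 25, 15 and 14 in exposed wild type libraries and 11, 4, 5 and 9 in naive wild type libraries. About 4 counts were taken as 1 sequenced fragment, an assumption from the most frequent low values and the planned depth, and 3 fragments (12 counts) as the floor. At or under that floor were 4 of 5 exposed null, 4 of 5 naive null, 2 of 5 exposed wild type and 4 of 4 naive wild type libraries. A difference between groups was not detectable at this depth, with log2 fold changes on exposure of -0.19 in null (SE 1.01, adjusted p = 0.90) and 0.91 in wild type mice (SE 1.09, adjusted p = 0.55).

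Nos2 (ENSMUSG00000020826.10, chromosome 11, 78811613 to 78851080, plus strand) never exceeded 0.557 TPM. It had 24, 31, 7, 0 and 75 estimated counts in exposed null libraries, 29, 12, 16, 34 and 9 in naive null libraries, 0, 51, 39, 31 and 13 in exposed wild type libraries and 0, 0, 11 and 0 in naive wild type libraries. All 4 groups overlapped, and only the naive wild type group lay at or under the floor throughout. The deepest library of that group, number 4, had 0 counts. The summed counts were 137 in exposed null and 100 in naive null mice, and 134 in exposed wild type and 11 in naive wild type mice.

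On exposure Nos2 had a log2 fold change of 1.01 in null mice (SE 1.04, adjusted p = 0.46) and 3.24 in wild type mice (SE 1.30, unadjusted p = 0.022, adjusted p = 0.053). DESeq2 gave the wild type value as 3.26 (adjusted p = 0.023), and without naive wild type library 3, which holds all counts of its group, edgeR gave 8.00 (adjusted p = 0.0046). It also passed without exposed wild type library 1 (3.56, adjusted p = 0.024) and without exposed null library 4 (3.24, adjusted p = 0.032). Against a group near 0 such a fold depends on the prior count and sets no bound. The interaction was -2.22 (SE 1.62, adjusted p = 0.71), and the genotype differences were -0.07 in exposed mice (SE 1.02, adjusted p = 0.98) and 2.15 in naive mice (SE 1.27, adjusted p = 0.43). In exposed libraries Gch1 thus stood at 67.7 TPM or more where Nos2 stood below 1 TPM.

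**Figure D3:**
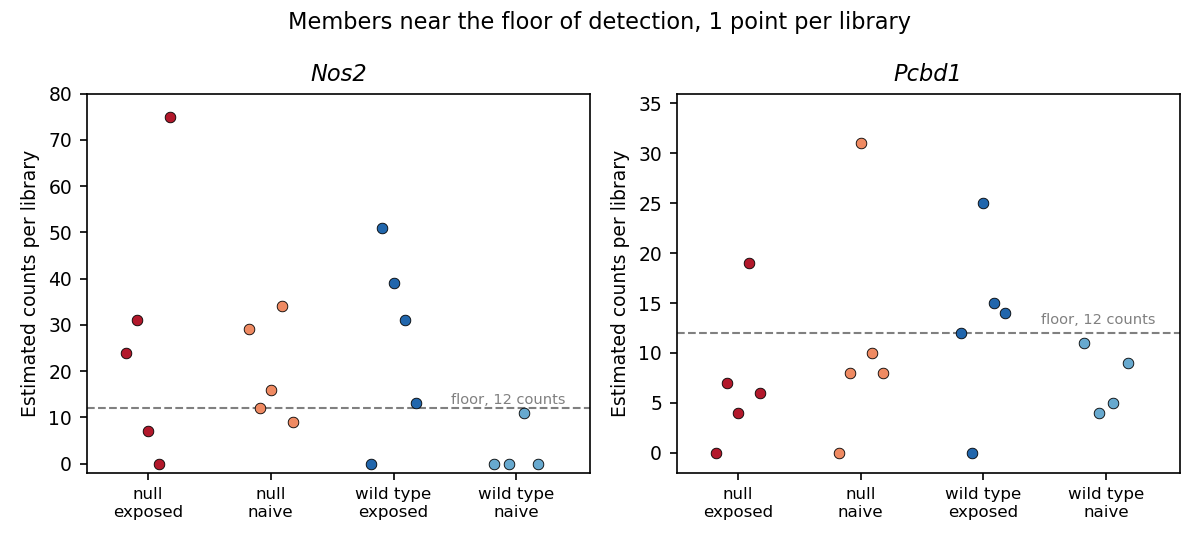
Estimated counts per library (vertical axes) of Nos2 and Pcbd1 by group, with a dashed line at the floor of 12 counts. Nos2 reaches 75 counts in 1 exposed null library and 51 in 1 exposed wild type library, and most Pcbd1 values lie at or under the line.

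Between genotypes, 0 of the 5 members other than Pts passed in exposed mice, in naive mice or in the interaction by edgeR. Among all genes, 8.48% passed in exposed mice (4.43% higher and 4.04% lower in null), 6.86% in naive mice (4.31% higher and 2.55% lower in null) and 0.332% in the interaction (0.18% higher and 0.151% lower). At an unadjusted p under 0.05 the count was 0 in exposed mice, 1 (Spr) in naive mice and 0 in the interaction. DESeq2 called 0 in each. Limma on log2(TPM + 1), which tested 3 of them, called 0 in exposed mice, 1 (Spr) in naive mice and 0 in the interaction.

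Around Pts, 13 other genes start or end within 200 kb in the deposited annotation, and 12 of them were tested. Null against wild type, 3 were higher and 1 lower in exposed mice, and 4 were higher and 0 lower in naive mice, that is 4 of 12 in each, against 8.48% of all genes in exposed and 6.86% in naive mice. In the interaction, 0 of 12 passed by edgeR, 0 had an unadjusted p under 0.05, and DESeq2 and limma called 0. Only 0.332% of all genes passed the interaction by edgeR, so a count of 0 among 12 is near that share. Pts lies 29.5 Mb from Icam1 on the same chromosome.

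Bco2, which encodes a carotenoid-cleaving oxygenase and lies 4363 bases from Pts, was higher in null mice by 1.31 after exposure (SE 0.14, adjusted p = 1.4e-06) and by 1.28 in naive mice (SE 0.15, adjusted p = 4.7e-06). Its level was 7.34 ± 0.551 TPM in exposed null and 3.01 ± 0.553 TPM in exposed wild type mice, and 8.89 ± 0.865 TPM in naive null and 3.81 ± 0.202 TPM in naive wild type mice. Il18 is a cytokine gene of the inflammasome pathway. Its boundary at the lower coordinate overlaps Bco2, so reads of both genes may be mixed. Il18 was higher in null mice by 0.91 in exposed mice (SE 0.06, adjusted p = 1.2e-09) and by 0.91 in naive mice (SE 0.07, adjusted p = 4.0e-09). Both neighbours were thus higher in null mice with and without exposure.

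Plet1, a gene for a surface protein, lies 16135 bases from Pts on the other side and rose on exposure by 2.52 in null mice (SE 0.09, adjusted p = 1.8e-15) and by 2.33 in wild type mice (SE 0.10, adjusted p = 3.1e-14). Its transcribed region lies within that of Plet1os, so reads of the 2 genes may be mixed. Plet1 was higher in null mice by 0.70 after exposure (SE 0.08, adjusted p = 5.5e-06) and by 0.51 in naive mice (SE 0.09, adjusted p = 5.9e-04). Dixdc1 was higher in naive null mice by 0.71 (SE 0.21, adjusted p = 0.04), and Sdhd, a subunit gene of succinate dehydrogenase, was lower in exposed null mice (-0.28, SE 0.07, adjusted p = 0.011). The nearest gene, the long noncoding RNA Gm47077, 43 bases away, did not pass the filter.

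**Figure D4:**
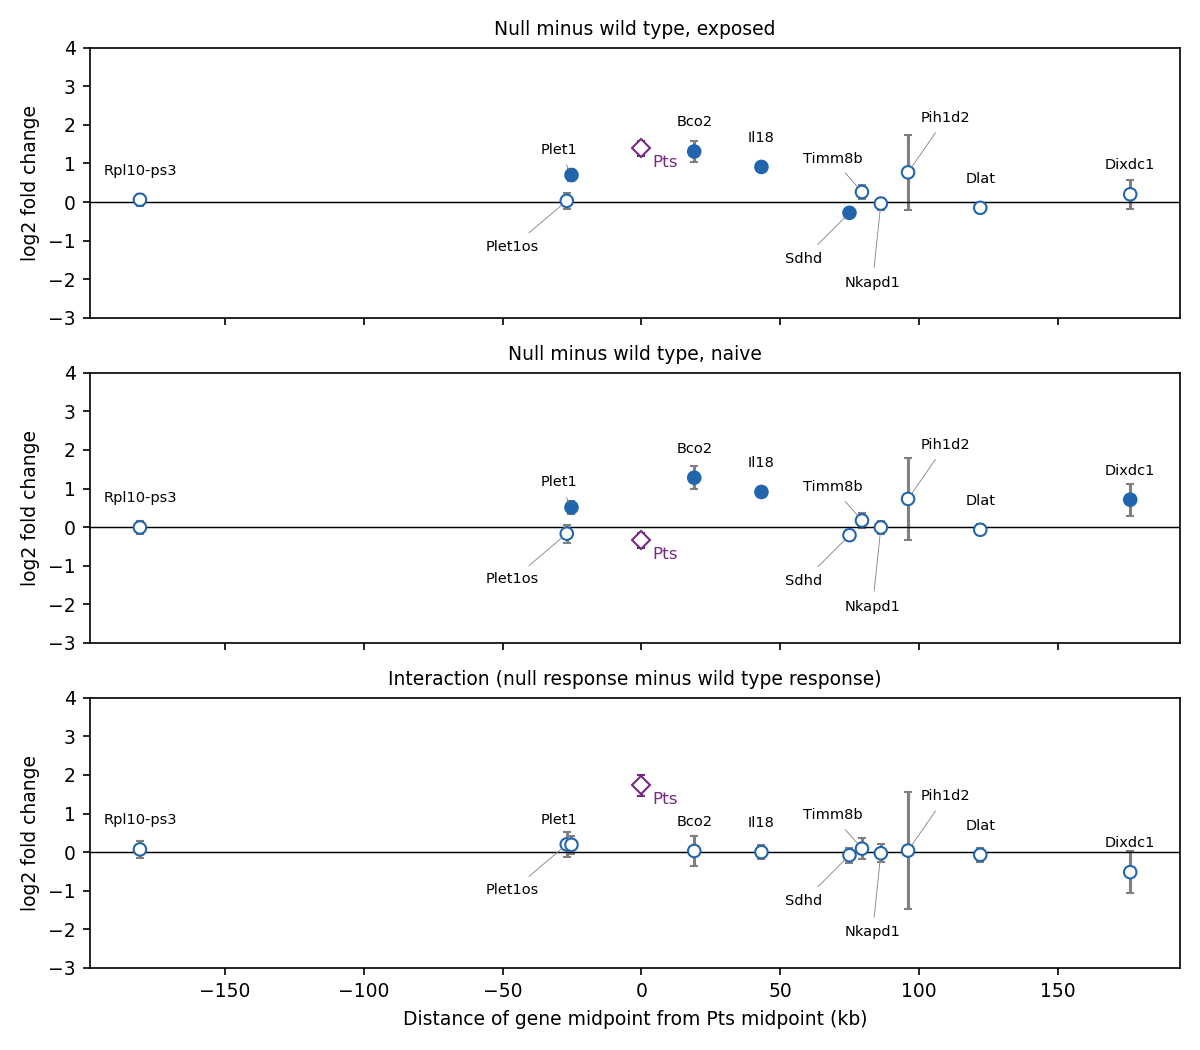
Log2 fold change (vertical axes) of tested genes within 200 kb of Pts against the distance between gene midpoints (kb). Bars give the 95% interval, points are filled where the adjusted p is under 0.05, and Pts (diamond) has no test. Tex12 is left out, with an interaction of -1.52 (SE 1.46, edgeR adjusted p = 0.81). Its mean was 3.21 TPM in exposed null, 0.267 TPM in naive null, 1.52 TPM in exposed wild type and 0.0292 TPM in naive wild type mice. Bco2, Il18 and Plet1 are above 0 in both genotype panels and near 0 in the interaction. Pts stands there at 1.73, part of the pattern for which it was picked.

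Genes with profiles most like Pts were sought over the 19 libraries by the root mean square difference between log2(TPM + 1) profiles, each centred on its mean, among 11505 genes. The nearest were Rcc1 (0.293), Chst15 (0.294), Zdhhc18 (0.308), Alg9 (0.308) and Nabp1 (0.328), against 0.502 for Pts around its own mean. Rcc1 stood at 56.2 ± 2.02 TPM in exposed null, 50.1 ± 3.19 TPM in naive null, 34.2 ± 5.4 TPM in exposed wild type and 42.5 ± 3.55 TPM in naive wild type mice. Zdhhc18 stood at 42.5 ± 6.92 TPM in exposed null, 24.4 ± 2.17 TPM in naive null, 18.5 ± 2.22 TPM in exposed wild type and 18.5 ± 1.22 TPM in naive wild type mice. These 2 genes were thus highest in exposed null mice, as Pts was. They were chosen for likeness to Pts in these same libraries, so this is a description. In wild type mice Rcc1 had a lower mean TPM after exposure and Zdhhc18 did not. The median of all genes on log2(TPM + 1) moved by -0.32 in that comparison. The lower mean of Rcc1 is therefore not a fall relative to the median gene.

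The profiles nearest to Gch1 were closer. They were Tnip1 (0.151), Tnfaip2 (0.153), Rab11fip1 (0.163), Relb (0.177) and Ell2 (0.177), against 1.22 for Gch1 around its own mean. Relb, a subunit gene of NF-kB, stood at 150.2 ± 17.5 TPM in exposed null, 22.0 ± 2.86 TPM in naive null, 138 ± 16 TPM in exposed wild type and 23.7 ± 4.81 TPM in naive wild type mice. Nos2 averaged below 1 TPM and was not compared in this way.

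The wider pathway was described through 7 lists of 81 genes, of which 79 were matched in the tables and 71 tested. On exposure, 31 rose and 11 fell in null mice and 32 rose and 7 fell in wild type mice, that is 59.2% and 54.9% of those tested against 44.8% and 40.2% of all genes. The median log2 fold changes were 0.18 and 0.20, against 0.02 over all genes in each comparison. With library totals alone, the counts were 20 up and 28 down in null mice and 21 up and 28 down in wild type mice, so the small rises below hold only relative to the median gene. Between genotypes 9 were higher and 5 lower in exposed null mice (19.7%, against 8.48% of all genes), and 7 were higher and 2 lower in naive null mice (12.7%, against 6.86%).

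Regulators known to act on Nos2 and Gch1, the longest list, held more of these calls than any other list. The higher share over all 71 tested genes on exposure leans on this list. It is therefore not read as a trait of the wider pathway. Of 21 tested, 15 rose and 5 fell in null mice (median 0.81), and 15 rose and 3 fell in wild type mice (median 0.64). Among all genes 44.8% passed in null and 40.2% in wild type mice. Nfkb2, an NF-kB subunit gene, rose by 3.50 in null (SE 0.10, adjusted p = 1.5e-16) and 3.19 in wild type mice (SE 0.11, adjusted p = 3.4e-15). Rel, another subunit gene, rose by 3.44 (SE 0.12, adjusted p = 2.7e-15) and 3.56 (SE 0.14, adjusted p = 1.3e-14) in null and wild type mice. Irf1, a transcription factor gene of interferon responses, was the only list gene that passed the interaction test by edgeR (0.93, SE 0.19, adjusted p = 0.04). It stood at 643 ± 173 TPM in exposed null and 48.0 ± 2.45 TPM in naive null mice, and at 408 ± 40.3 TPM in exposed wild type and 59.3 ± 3.98 TPM in naive wild type mice.

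Among interferon receptor genes, 3 differed by genotype. Ifngr1 was higher in null mice by 0.59 after exposure (SE 0.13, adjusted p = 0.0067) and by 0.77 in naive mice (SE 0.14, adjusted p = 0.0012). Ifnar1 was higher in null mice by 0.77 after exposure (SE 0.10, adjusted p = 1.0e-05) and by 0.45 in naive mice (SE 0.10, adjusted p = 0.0079). Ifngr2 was lower in exposed null mice, at 30.4 ± 3.72 TPM against 40.5 ± 3.79 TPM in exposed wild type mice (-0.37, SE 0.08, adjusted p = 0.0027). Irf8, a myeloid transcription factor gene, was lower in null than in wild type mice, at -0.32 after exposure (SE 0.09, adjusted p = 0.035) and -0.36 in naive mice (SE 0.10, adjusted p = 0.026).

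Genes that supply arginine, the substrate of Nos2, were listed together with the arginase genes Arg1 and Arg2, whose products consume it. Of these 9 genes, 5 rose in null mice (median 0.66), Arg2 among them, and 6 rose in wild type mice (median 1.22), Arg1 and Arg2 among them, with 0 lower in either. Among all genes 44.8% passed in null mice (21.4% upward) and 40.2% in wild type mice (20.1% upward). In each genotype 3 of the 9 were lower with library totals alone. Slc7a2, a cationic amino acid transporter gene, stood at 318 ± 58.3 TPM in exposed null and 149.5 ± 13.1 TPM in naive null mice (log2 fold change 1.53, SE 0.11, adjusted p = 2.2e-10), and at 336 ± 46.1 TPM in exposed wild type and 184 ± 20.6 TPM in naive wild type mice (1.36, SE 0.12, adjusted p = 6.1e-09). Arg2 rose by 3.02 in null (SE 0.31, adjusted p = 7.6e-08) and 3.59 in wild type mice (SE 0.37, adjusted p = 7.9e-08). Arg1 was lower in exposed null mice, at 1.07 ± 0.774 TPM against 2.73 ± 1.54 TPM in exposed wild type mice (-1.35, SE 0.40, adjusted p = 0.04). Slc3a2, the heavy chain gene of several amino acid transporters, was higher in null mice by 0.24 after exposure (SE 0.07, adjusted p = 0.045) and by 0.47 in naive mice (SE 0.08, adjusted p = 3.6e-04).

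Upstream of Gch1, the genes of GTP supply rose at 3 and fell at 1 of 8 in null mice (median -0.03), and rose at 2 and fell at 1 of 8 in wild type mice (median -0.02). These shares, 4 of 8 and 3 of 8, are near the 44.8% and 40.2% of all genes. With library totals alone 0 rose and 5 fell in null mice, and 0 rose and 6 fell in wild type mice. Impdh1, which encodes an isoform of the rate-limiting enzyme of guanine nucleotide synthesis, was lower in null mice with and without exposure. It stood at 7.76 ± 1.03 TPM in exposed null and 21.4 ± 1.88 TPM in exposed wild type mice (log2 fold change -1.40, SE 0.13, adjusted p = 1.1e-07), and at 7.02 ± 1.32 TPM in naive null and 28.6 ± 4.33 TPM in naive wild type mice (-1.94, SE 0.13, adjusted p = 1.8e-09). Impdh2, the other isoform, rose on exposure by 0.60 in null mice (SE 0.11, adjusted p = 2.0e-04) and 0.54 in wild type mice (SE 0.12, adjusted p = 0.0012) relative to the median gene.

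Among genes of cofactor regulation, salvage and alternative reduction, 0 rose and 3 fell of 9 in null mice (median -0.22), and 1 rose and 2 fell in wild type mice (median -0.09). These shares are not above the 44.8% of all genes in null and 40.2% in wild type mice. With library totals alone 7 fell in null and 6 in wild type mice, with 0 higher in either. Akr1b10, an aldo-keto reductase gene, fell by 0.61 on the log2 scale in null mice (SE 0.08, adjusted p = 3.8e-06) and by 0.68 in wild type mice (SE 0.09, adjusted p = 2.5e-06). The carbonyl reductase gene Cbr3 was higher in null mice, by 0.93 after exposure (SE 0.14, adjusted p = 9.5e-05) and 1.16 in naive mice (SE 0.15, adjusted p = 1.6e-05). Akr1b8, another aldo-keto reductase gene, was higher in null mice by 0.99 after exposure (SE 0.21, adjusted p = 0.0041) and 1.65 in naive mice (SE 0.24, adjusted p = 5.8e-05). Akr1b8 and Akr1b10 are close relatives, so the counting step could split reads between them.

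Of the other enzymes that use tetrahydrobiopterin, 3 of 7 were tested. Agmo, the alkylglycerol monooxygenase gene, was the only one above 1 TPM, at 18 ± 1.15 TPM in exposed null, 18.7 ± 3.31 TPM in naive null, 19.1 ± 3.68 TPM in exposed wild type and 24.3 ± 3.17 TPM in naive wild type mice. It passed no test in the main edgeR fit, and its exposure calls turned on the settings. In null mice it was 0.30 in the main fit (adjusted p = 0.057). There it passed at 0.31 with DESeq2 (adjusted p = 0.043), 0.33 with the stricter filter (adjusted p = 0.028) and 0.31 with only the groups compared (adjusted p = 0.027). It did not pass without a filter on low counts (0.27, adjusted p = 0.11). The log2 fold change with library totals alone was -0.04 in null (adjusted p = 0.83) and -0.33 in wild type mice (adjusted p = 0.043), and with upper-quartile factors it was 0.35 in null (adjusted p = 0.024) and 0.04 in wild type mice (adjusted p = 0.84). Nos3, the endothelial synthase gene, was listed at 0 in every exposed null library and at 0.0645 ± 0.026 TPM in naive null mice (adjusted p = 0.016), a level too low for a fold change. In the main fit Nos3 passed in no other comparison, and the neuronal synthase gene Nos1 passed in none. DESeq2 also called Nos3 lower in exposed null than in exposed wild type mice (adjusted p = 0.035), at the same low level.

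Partners and regulators of nitric oxide synthases, listed with genes for the synthesis and breakdown of the inhibitor asymmetric dimethylarginine, rose at 6 and fell at 1 of 14 in each genotype. This share, 7 of 14, is near the 44.8% of all genes in null and 40.2% in wild type mice. The list had a median of 0.35 in null and 0.14 in wild type mice. With library totals alone 2 rose and 5 fell in each. The chaperone gene Hsp90aa1 stood at 323 ± 19.1 TPM in exposed null and 169.6 ± 20.2 TPM in naive null mice (log2 fold change 1.27, SE 0.09, adjusted p = 2.7e-10), and at 303 ± 17.9 TPM in exposed wild type and 171 ± 27.7 TPM in naive wild type mice (1.20, SE 0.10, adjusted p = 3.0e-09). Nosip, which encodes a protein that binds nitric oxide synthases, fell by 0.84 on the log2 scale in null mice (SE 0.11, adjusted p = 2.9e-06) and by 0.92 in wild type mice (SE 0.12, adjusted p = 2.3e-06). Of 7 tested nitric oxide targets, 2 rose and 0 fell in each genotype, with medians of 0.15 in null and 0.46 in wild type mice. This share, 2 of 7, is not above the 44.8% of all genes in null and 40.2% in wild type mice. With library totals alone 1 rose and 1 fell in each. Txnrd1, a thioredoxin reductase gene, rose by 2.22 in null (SE 0.10, adjusted p = 8.0e-14) and 2.35 in wild type mice (SE 0.11, adjusted p = 2.1e-13).

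**Figure D5:**
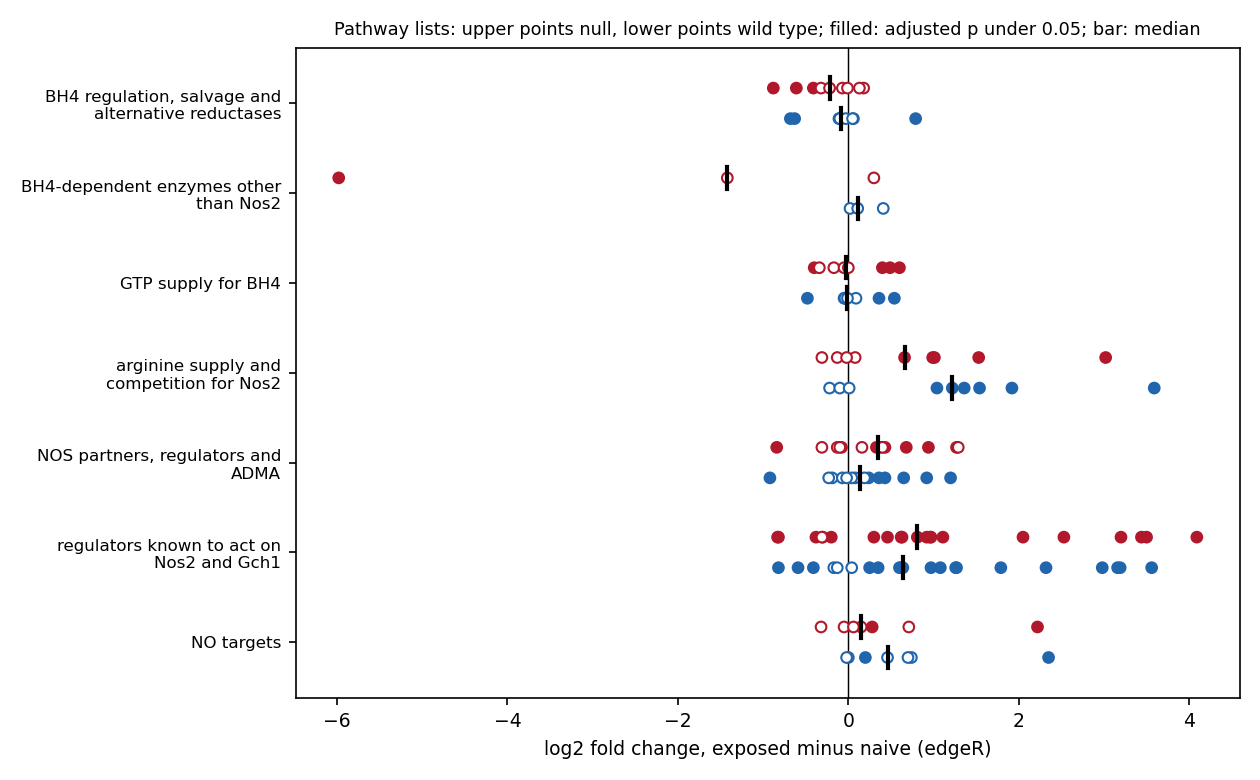
Log2 fold change, exposed minus naive (horizontal axis), of each tested gene in the 7 pathway lists, with null mice as upper and wild type mice as lower points and a bar at each list's median. Regulators reach 4.09 and the arginase gene Arg2 reaches 3.59, while the medians of GTP supply lie at -0.03 and -0.02; the lowest point is Nos3, which is listed at 0 in exposed null mice.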

How the data were processed

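RNA of lavage pellets from 19 mice was sequenced after poly(A) selection at 150 bases from each end (20 M paired reads planned), per the labels. The submitters' processing notes name STAR, StringTie 2 and the build GRCm39. Strand and counting options: not given in the sources used here. The deposited tables hold estimated counts, made by the authors as whole numbers without scaling for depth, and TPM, scaled by the authors to 1 sum per library.

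The main test was edgeR 4.0.16 under R 4.3.3 on estimated counts (quasi-likelihood F test, two-sided, all 19 libraries and 4 groups in 1 model, TMM scaling, filterByExpr at its defaults, minimum count 10 and total 15), with Benjamini-Hochberg adjustment over 20501 genes. DESeq2 1.42.0 and limma 3.58.1 (trend, on log2(TPM + 1) or log2(TPM + 0.1) for genes of at least 0.5 TPM on average) were alternatives, and so were other scalings, filters and samples. Total estimated counts of 32.8 to 80.3 M per library set the precision, and floors cover counting error only. No pair of libraries held identical values. Labels number the mice within a group and name no shared litter or day; p-values therefore reflect only how much these samples vary.

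The members, the gene lists and the tests were chosen with earlier results of these data known, and Pts has no test. Named list genes are at most the 4 with the smallest adjusted p under 0.05 per list and comparison. Neighbours of Pts lie within 200 kb, and the 5 most similar genes of at least 1 TPM are named without predicted genes. Adss2 and Hprt1 were not matched under those symbols. Some list genes are withheld from this text and are not reported here by name.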

Additional observations from a re-analysis of the deposited data

Results flagged for a closer look

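In 24 groups of 4 or 5 libraries, 3 held a library far from the rest, a gap that chance gives in about 1 group in 20. The 24 are 6 genes in the same 4 groups of libraries, and that rate need not hold for Pcbd1 and Nos2, whose counts are near 0. Spr was 60.9 TPM in naive null library 2, below 77.6 to 83 TPM in the other naive null libraries. Pcbd1 was 1.05 TPM in exposed null library 4, from 19 counts, and Nos2 was 0.119 TPM in naive wild type library 3, from 11 counts, where the others of its group were at 0. Without that library Nos2 passed in wild type mice, as it also did under DESeq2 and without either of 2 other libraries.

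Among 76 interaction tests of members and list genes, Irf1 passed, with a response that was larger in null than in wild type mice by 0.93 on the log2 scale (adjusted p = 0.04).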

How the results depend on the processing

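Gch1 kept its direction and its calls in both exposure comparisons under all 12 other settings (2.53 to 3.02 in null, 2.32 to 2.79 in wild type mice) and without each library in turn (2.91 to 3.02 and 2.70 to 2.83). Values below are log2 fold changes, and the cause of a change was not tested unless named.

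Pts, which has no test and was picked on these same libraries, kept its signs and moved in size. On exposure it was 0.92 in null and -0.82 in wild type mice with library totals alone. It was 0.65 and -0.67 on log2(TPM + 1), with or without the filter on low TPM, and 0.66 and -0.69 on log2(TPM + 0.1). The interaction was then 1.32 and 1.35, and the naive genotype difference -0.05 in each. Without wild type naive libraries 1, 2 and 3 together, which leaves 1 library assumed to vary like the other groups, Pts was -0.67 in wild type exposure, -0.53 between naive genotypes and 1.93 in the interaction. Without each library in turn the interaction was 1.65 to 1.82.

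Without those 3 libraries Spr no longer passed in wild type mice (-0.28, adjusted p = 0.34; 1 member then passed) and its interaction was -0.04. With only the groups compared in the fit, Spr was -0.29 in null mice (adjusted p = 0.054), and 1 member passed. With library totals alone Spr was -0.64 in null and -0.75 in wild type mice, and on log2(TPM + 0.1) -0.74 and -0.86, and it passed in each. Without each library in turn Spr was -0.39 to -0.23 in null mice, lost without exposed null library 1 or 2 or naive null library 4, and 1 to 2 members passed. Between naive genotypes Spr passed on log2(TPM + 1) (-0.44, adjusted p = 0.016, or 0.043 with no filter) and on log2(TPM + 0.1) (-0.45, adjusted p = 0.018), so that 1 member passed.

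Qdpr passed on exposure with library totals alone (-0.35 in null, -0.39 in wild type mice), on log2(TPM + 1) with or without a filter (-0.36 and -0.41) and on log2(TPM + 0.1) (-0.37 and -0.42), as the median of all genes moved. Its values near 0 changed sign without passing. In null exposure these were 0.01 with RLE factors and with the stricter filter, 0.03 with upper-quartile factors and -0.05 to 0.02 without each library in turn. Between exposed genotypes they were -0.01 with library totals and on each TPM scale, and -0.00 to 0.05 without each library. Between naive genotypes they were -0.01 with RLE factors, the stricter filter, only the groups compared or without the 3 libraries, -0.03 with upper-quartile factors, -0.05 with library totals, -0.06 on each TPM scale, and -0.01 to 0.03 without each library. In the interaction they were -0.00 without a filter on low counts and -0.02 to 0.05 without each library. Gch1 between naive genotypes was -0.10 to 0.01 without each library.

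Nos2 in wild type mice passed with DESeq2 (3.26, adjusted p = 0.023) and ranged from 2.73 to 8.00 without each library in turn, and between exposed genotypes from -0.90 to 0.29. Pcbd1 between naive genotypes was -0.40 with the replicate block, -0.08 on unfiltered log2(TPM + 1) and -0.68 to 0.64 without each library, and in null exposure -0.95 to 0.58. Both have few counts, and the part of depth in this was not tested.

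No sign was seen that the replicate numbers pair the samples, though weak correlations cannot exclude a shared litter or day. The deviations of 27 same-numbered pairs correlated at -0.0476 to 0.073, and 4 of 19 libraries correlated best with their own number. With the replicate number as a block the same members passed, with Gch1 at 2.97 in null and 2.77 in wild type mice and Nos2 at 3.46 in wild type mice (adjusted p = 0.083).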
